A study of Mus musculus with 419 samples.

Results

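Dppa2, Dppa3, Dppa4 and Dppa5a are the mouse genes of the developmental pluripotency associated (Dppa) group that carry these 4 symbols. They were chosen by symbol, through the transcript rows that the GENCODE vM21 annotation gives them, and not by any measured value. They are 4 of the 48253 genes with a row in the deposited tables and 4 of the 10470 autosomal genes that passed the limits on level and allele information. Of their 8 annotated transcripts, 6 had a row: 1 for Dppa2, 1 for Dppa5a and 2 each for Dppa3 and Dppa4.

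The genes share a name because they are expressed in pluripotent cells and early embryos, and not because all of their proteins are alike. Dppa2 and Dppa4 encode related chromatin proteins with a DNA-binding SAP domain, which form a heterodimer, occupy bivalent promoters in mouse embryonic stem cells and are needed there for expression of Dux and other genes of the early cleavage embryo. Dppa3, also called Stella or PGC7, is a maternal-effect factor of oocytes, zygotes and primordial germ cells that guards DNA methylation in the zygote and can hold back the maintenance methylation factor Uhrf1. Dppa5a, also called Esg1, encodes a protein with a KH-type RNA-binding domain and is a widely used marker of embryonic stem cells.

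The study read 419 single G1 embryonic stem cells of the hybrid mouse line F1-21.6, which is female and carries 1 chromosome set of strain 129Sv and 1 of Cast/EiJ. Cells grew on laminin-511 without feeder cells in medium with serum and LIF, and each was read by RamDA-seq, which covers full-length total RNA and has no molecular identifiers. The purpose given for the series is the kinetics of transcriptional bursting, seen through the RNA of each allele, so the comparison here is 129 over CAST within cells. The labels name 1 line and no separate cultures: all cells were taken as 1 sample, no p-value was computed, and spreads are over cells or over the 5 sequencing lanes, which held 80 to 88 cells each.

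Values are the authors' scaled allele values, whole numbers with a nearly common total per cell (698363 to 1477656 over both alleles, median 925852), and not counts of reads, so the depth in reads is unknown. Levels below are the sum of both alleles in the row with the largest total of each gene, after the cell totals were made equal. The embryonic stem cell label was checked with Pou5f1, Sox2, Nanog, Zfp42 and Esrrb: their summed level had a median of 1126 per cell, a lowest value of 2.26 and a highest of 2300. The trophectoderm list (Cdx2, Eomes, Gata3, Elf5, Tfap2a, Krt8, Krt18) had a median sum of 15.8 and reached 12998 in 1 cell.

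The genes lie on 3 chromosomes of the build GRCm38 (mm10). Dppa4 (short row ENSMUST00000050705, plus strand, chr16:48283787-48294237) and Dppa2 (row ENSMUST00000097175, plus strand, chr16:48310477-48319723) are neighbours whose starts are 26690 bp apart. Dppa3 (long row ENSMUST00000049644, plus strand) occupies chr6:122626410-122630272, and Dppa5a (row ENSMUST00000071991, minus strand) occupies chr9:78367052-78368177.

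Sequence that the genes share with other rows bears on the allele values. The closest copy of Dppa2 is Gm9788, a processed pseudogene on chromosome 19, which equals the Dppa2 row in 99.3% of 906 aligned bases and differs in 6. The 100 bases below are coding bases of Dppa2 (chr16:48310528-48311662, plus strand, joined across introns) and the matching bases of Gm9788 (chr19:41459834-41459933, plus strand). They hold 4 of the 6 differences, in capitals; all sequences here are from the GENCODE vM21 transcripts of the reference strain, read 5′ to 3′, and not from 129 or CAST.
Dppa2: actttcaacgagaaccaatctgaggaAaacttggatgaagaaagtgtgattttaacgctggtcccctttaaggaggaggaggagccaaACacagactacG
Gm9788: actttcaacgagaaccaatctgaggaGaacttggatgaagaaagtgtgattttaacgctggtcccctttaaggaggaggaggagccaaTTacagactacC
Within this stretch, a read that spans none of the capitals cannot be told apart between these reference sequences. The labels do not say how such reads were placed. The Dppa2 row is 1948 bases long and the whole Gm9788 row 906, so a large part of the Dppa2 row has no counterpart in Gm9788.

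The rows of Dppa4 and Dppa3 differ in coding exons, shown here because the split of a gene's value between its rows is described further on. The long Dppa4 row, ENSMUST00000096045, holds 105 bases at the end of its exon 3 (chr16:48289101-48289205) and the 51 bases of its exon 4 (chr16:48289328-48289378) that the short row lacks, both on the plus strand and in frame, so its coding sequence has 296 codons and that of the short row has 244.
Dppa4 long row, exon 3 end: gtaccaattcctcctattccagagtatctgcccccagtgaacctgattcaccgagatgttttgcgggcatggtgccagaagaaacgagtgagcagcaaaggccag
Dppa4 long row, exon 4: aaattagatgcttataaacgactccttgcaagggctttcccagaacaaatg
The long Dppa3 row and the short one, ENSMUST00000123429, begin with different first exons on the plus strand, with coding bases at chr6:122626523-122626610 and chr6:122626753-122626811. The annotated coding sequence of the short row starts at its base 1, with caa and not atg, so its start is not annotated. It has 421 bases, against 450 in the long row.
Dppa3 long row, exon 1: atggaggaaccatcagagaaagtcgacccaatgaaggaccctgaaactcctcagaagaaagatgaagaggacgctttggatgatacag
Dppa3 short row, exon 1: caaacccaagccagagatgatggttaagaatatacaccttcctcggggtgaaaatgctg

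The 4 genes covered a wide range of levels. Dppa5a was among the most abundant genes of these cells, Dppa2 and Dppa4 were moderately abundant and present in nearly every cell, and Dppa3 was low and uneven. Per kilobase of row, the mean scaled level was 1492 for Dppa5a, 39.2 for Dppa4, 34.2 for Dppa2 and 12.5 for Dppa3, against a median of 5.72 over the genes measured. In the rows used, the lane means per kilobase of Dppa4 (33.2 to 45.9) and Dppa2 (31.9 to 37.8) overlapped, whereas those of Dppa5a (1397 to 1725) and Dppa3 (10.2 to 15.7) stood apart. The Dppa4 value leaves out its long row, which held 34.5% of the gene's value (26.9% to 39.8% over lanes). With both rows summed, the mean scaled level of Dppa4 was 76.1, against 66.7 for Dppa2. The overlap is therefore of the rows used, and no level per kilobase was computed for the summed rows.

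Dppa2 ranged from a scaled level of 0 through a median of 62.8 to a highest value of 528 over cells, with a mean of 66.7 ± 46.7 (SD over 419 cells). Its lane means lay between 62.2 and 73.6. Most cells were close together, with quartiles at 44.1 and 81.2, and a few cells stood far above them.

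Dppa4, the partner of Dppa2, ranged from 0 through a median of 48.7 to 118, with a mean scaled level of 49.9 ± 24.8 (SD over 419 cells) and lane means from 42.2 to 58.3. It had the tightest upper end of the 4: its highest cell was under the level that Dppa2 reached in its top cells, and the 4 highest cells held 2.19% of its total.

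Dppa3, the germ line and maternal factor, ranged from 0 through a median of 2.02 to 496, with a mean scaled level of 10.4 ± 30.6 (SD over 419 cells). Its 4 highest cells held 21.9% of its total, and 1 cell alone held 11.4%. The mean of Dppa3 therefore rests on few cells, and its lane medians were 0 in lanes 3 and 5 and 1.49 to 4.95 in the other lanes.

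Dppa5a ranged from 0 through a median of 874 to 2810, with a mean scaled level of 924 ± 424 (SD over 419 cells). Of the genes measured, 99.7% had a lower mean. Its lane means ran from 865 in lane 4 to 1068 in lane 6, and lane 6 was also the highest for Dppa4.

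**Figure D1:**
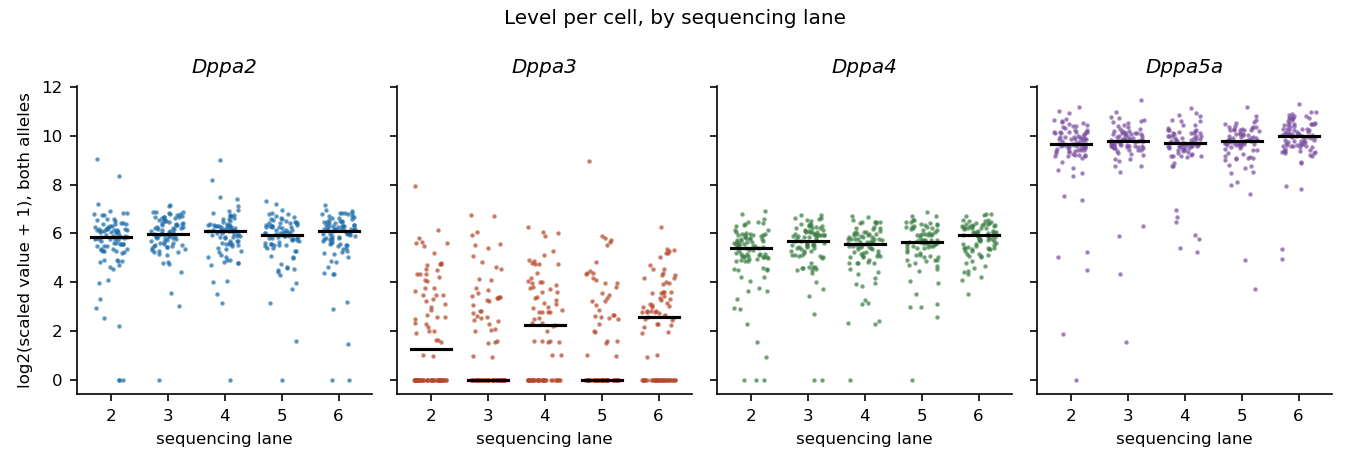
Level of each gene in each of the 419 cells, as log2 of the scaled value of both alleles plus 1, by sequencing lane; each point is a cell and the bar is the lane median. Dppa5a is the highest in nearly all cells, Dppa2 and Dppa4 form 1 main band each, and Dppa3 has many cells at 0.

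The alleles were unequal for Dppa2 and Dppa3 and close to equal for Dppa5a. The 129 share is the pooled value of the 129 allele over the sum of both; a share above 60% or below 40% was called unequal. Of the 4 genes, 1 lay above 60% (Dppa2), against 10.6% of the genes measured, and 1 lay below 40% (Dppa3), against 12.8% of them. The median share over the genes measured was 50.0%, with quartiles at 45.3% and 54.6%.

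Dppa2 had a summed value of 19451 from 129 and 8666 from CAST, a 129 share of 69.2% (67.9% to 70.4% over lanes) and a log2 ratio of 1.17. The median cell had 43 from 129 and 18 from CAST. The 129 value was the higher in 359 cells and the CAST value in 48, so the imbalance was present throughout the cells and not in a few.

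Dppa4 had a summed value of 12320 from 129 and 8490 from CAST, a 129 share of 59.2% (57.7% to 61.04% over lanes), just inside the limit. The median cell had 28 from 129 and 18 from CAST. The 129 allele was the higher in 292 cells and the CAST allele in 101, the same direction as for Dppa2 next to it.

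Dppa3 had a summed value of 826 from 129 and 3595 from CAST, a 129 share of 18.7% (10.9% to 23.8% over lanes). The 129 allele was the higher in 8.77% of the 228 cells with a value and the CAST allele in 86.8%. In its highest cell the alleles held 156 from 129 and 407 from CAST, and in the second 94 from 129 and 150 from CAST, so the direction also held where Dppa3 was abundant.

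Dppa5a had a summed value of 201036 from 129 and 184422 from CAST, a 129 share of 52.2% (49.3% to 53.7% over lanes). The median cell had 461 from 129 and 406 from CAST. The 129 value was the higher in 59.3% of the cells with a value and the CAST value in 39.7%. The range over lanes held 50%, although the SD over lanes was only 1.78 percentage points. With both alleles scaled to the same autosomal total, the 129 share was 51.0%. The 129 allele of Dppa5a was thus slightly the higher in the pool and in more cells, but not in every lane.

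**Figure D2:**
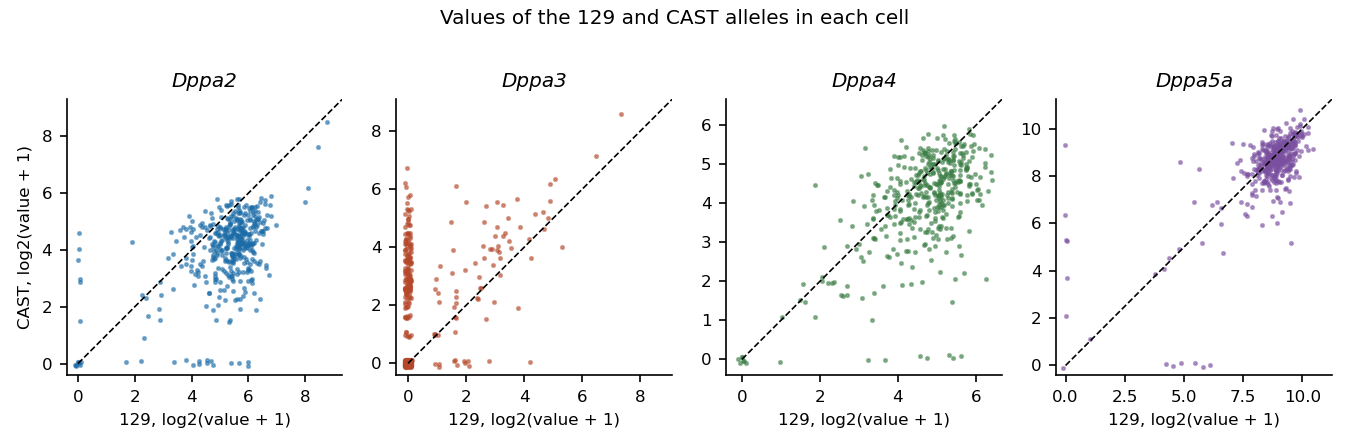
Value of the 129 allele (x axis) and of the CAST allele (y axis) in each cell, both as log2 of the deposited value plus 1; the dashed line marks equal values and points are slightly jittered. Dppa2 cells lie mostly below the line (129 higher in 359 cells), Dppa3 cells mostly above it (CAST higher in 86.8% of cells with a value), and Dppa5a cells around it.

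The imbalance of Dppa2 depended on the row of its copy. Gm9788 held a summed value of 153 from 129 and 7014 from CAST, a 129 share of 2.13%, with a value above 0 in 92.4% of cells. When Gm9788 and the rows of 2 other pseudogene copies, which were near 0, were added to Dppa2, the sum was 19619 from 129 and 15682 from CAST, and the 129 share was 55.6% (54.2% to 56.8% over lanes), no longer above 60%. The Gm9788 value of a cell moved with Dppa2 (Spearman's rho 0.255), with 0.268 between the CAST values. Between the 129 values rho was 0.000533, but those of Gm9788 summed to only 153 over all cells, so this value says little. Whether the Gm9788 value is RNA of the pseudogene or of the CAST allele of Dppa2 was not tested.

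Dppa5a has a similar partner. The row of Pigp, a gene of GPI anchor synthesis on chromosome 16, shares 134 of its 31-base words with Dppa5a, and its span (chr16:94358763-94370289) contains Gm15310, a pseudogene copy of Dppa5a. Pigp held a 129 share of 19.2% and moved with Dppa5a more closely than any other row named here (rho 0.815 over 419 cells). Adding the copy rows to Dppa5a gave a 129 share of 51.0%. For Dppa4 and Dppa3 the copies were near 0: Dppa3-ps held 0 in 129 and 47 in CAST, and with copies added the 129 share was 59.2% for Dppa4 and 18.5% for Dppa3. Dppa3-ps lies on the X chromosome, where every row of the 129 table is 0.

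Most cells held RNA of both alleles for 3 of the genes. The short row of Dppa4 had both alleles in 404 cells, 129 only in 8, CAST only in 0 and neither in 7. Dppa2 had both in 390 cells, 129 only in 15, CAST only in 6 and neither in 8. Dppa5a had both in 406 cells, 129 only in 6, CAST only in 6 and neither in 1.

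Dppa3 differed: 66 cells had both alleles, 12 had 129 only, 150 had CAST only and 191 had neither. It was at 0 in 45.6% of cells (exact binomial 95% interval 40.7% to 50.5%, counting error only), against a median of 10.4% over the 200 genes nearest in mean (quartiles 3.34% and 19.6%). With both Dppa3 rows summed, 23.6% of cells were off and 53.7% of cells with a value had 1 allele. If the alleles were on independently of each other at their own rates, 39.4% of cells would be at 0 for both and 84.2% of the cells with a value would show 1 allele. Observed were 71.1% with 1 allele, so cells with both alleles were more frequent than under independence. The 200 genes nearest in mean had a median of 51.0% with 1 allele (quartiles 43.9% and 58.5%), below the value of the Dppa3 row. With both Dppa3 rows summed, the 53.7% lay inside these quartiles.

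For Dppa2, 1.91% of cells were off (interval 0.828% to 3.73%), and 5.11% of cells with a value had 1 allele, against a median of 11.3% in genes of like mean. For the short row of Dppa4, 1.67% were off (0.674% to 3.41%), and 1.94% had 1 allele, against a median of 14.6% in genes of like mean. For Dppa5a, 0.239% were off (0.00604% to 1.32%), and 2.87% had 1 allele, against a median of 0.477% in the 200 genes nearest in mean. Cells off had a median of 0% in the 200 genes nearest Dppa2 (upper quartile 0.716%). It was 0.239% for Dppa4 (1.43%) and 0% for Dppa5a (0%). Each share off lay above its upper quartile, but the interval of Dppa4 held its quartile. With both Dppa4 rows summed, 0.716% of cells were off, under that quartile. The quartiles of the shares with 1 allele in the 200 nearest genes were 5.44% and 18.4% for Dppa2, 9.30% and 25.8% for Dppa4, and 0.239% and 0.957% for Dppa5a, so the interval of Dppa2 (3.19% to 7.71%) held the lower quartile. With a limit of 5 for an allele to be on, 9.38% of cells had 1 allele for Dppa2 and 6.48% for Dppa4. The 200 genes nearest Dppa5a had means from 295 to 2666, since few genes are as abundant, and are a loose reference for it.

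**Figure D3:**
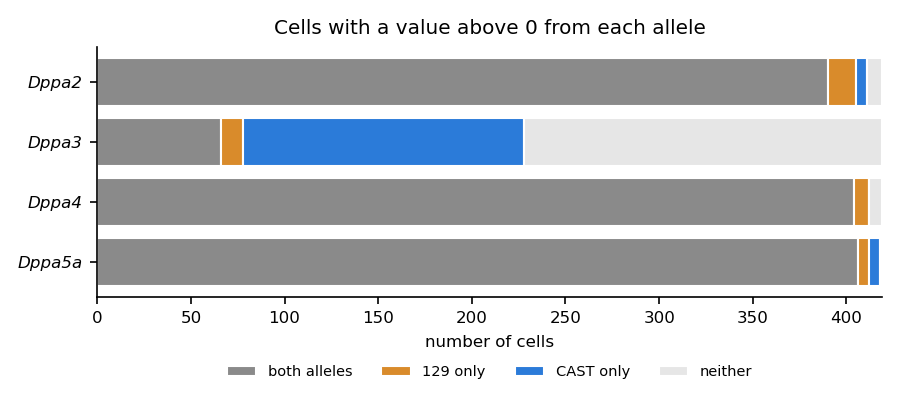
Number of the 419 cells with a value above 0 from both alleles, 129 only, CAST only or neither, for each gene. Dppa3 stands apart with 150 cells with CAST only and 191 with neither.

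Some cells with 1 allele had a whole chromosome read mainly from that allele. In cell 7, genes of chromosome 16 had a 129 share of 91.9%, and the cell held 51 from 129 and 0 from CAST for Dppa2, and 36 from 129 and 0 from CAST for Dppa4. In cell 246, chromosome 9 had a 129 share of 3.75%, and Dppa5a held 0 from 129 and 673 from CAST. In cell 80, Dppa5a held 362 from 129 and 407 from CAST although chromosome 9 had a 129 share of 16.6%. There were 6 such cells over chromosomes 6, 9 and 16, and without them the 129 shares were 69.1% for Dppa2, 18.7% for Dppa3, 59.1% for Dppa4 and 52.3% for Dppa5a.

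Noise was divided into an intrinsic portion, by which the alleles of a cell differ after each is scaled to its mean, and a shared portion, by which both alleles move together. Dppa4 and Dppa2 had low intrinsic noise for their level: 0.204 and 0.233, against medians of 0.551 and 0.467 over the 200 genes nearest each in mean. Only 7 of those 200 genes were lower than Dppa4, and 19 were lower than Dppa2. The alleles lay within 10% of each other, as a share of their sum, in 23.5% of the cells with a value for Dppa4 and in 9.49% for Dppa2. How far the sequence that separates the alleles bears on these noise values was not tested. Dppa5a had an intrinsic noise of 0.117, against 0.0888 in its 200 nearest genes, 134 of which were lower, over the wide range of means given above.

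In the rows used, shared noise was above the median of the 200 genes nearest in mean for all 4. It was 0.149 for Dppa4 against a median of -0.0144, 0.405 for Dppa2 against -0.0180, 0.154 for Dppa5a against 0.0315, and 10.6 for Dppa3 against -0.112. With both rows of Dppa4 summed, its value was 0.0397, inside the quartiles of the genes nearest its row (-0.119 and 0.102). The value of Dppa2 came largely from few cells: without 4 cells that were high in genes of the 2-cell embryo, described further on, it was 0.173, and over lanes it ran from 0.0995 to 0.892. Limiting values at their 99th percentile gave 0.158 for Dppa2 and 3.03 for Dppa3, and without lane 5, which holds the highest Dppa3 cell, that gene's value was 4.92. The intrinsic noise of Dppa3 was 4.57, above all 200 genes nearest in mean, but its 129 mean of 1.92 per cell lies under the limit of 5 per allele set for the noise comparison.

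**Figure D4:**
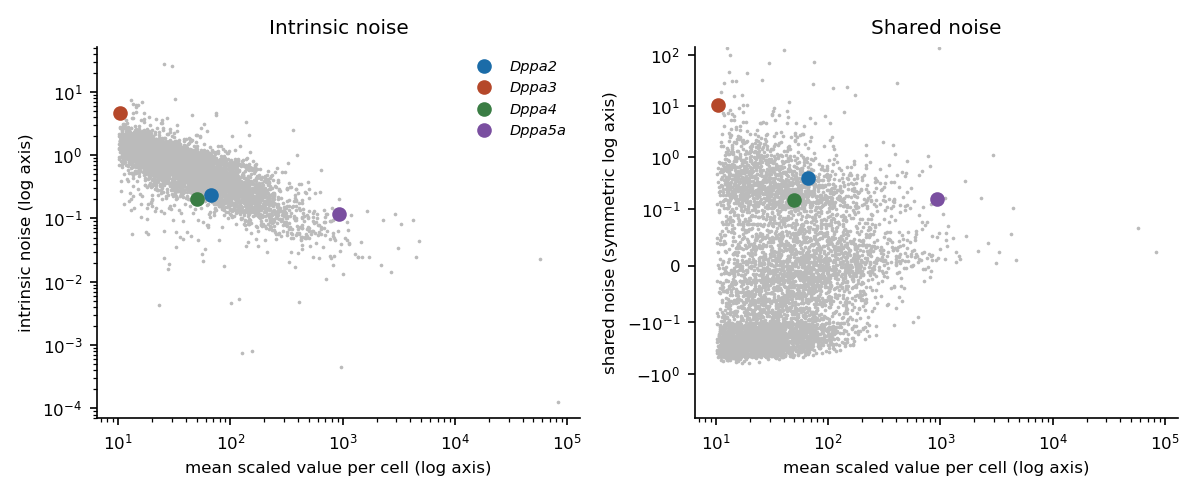
Intrinsic noise (left) and shared noise (right) against the mean scaled value per cell, on log or symmetric log axes; grey points are the 6032 genes with noise values and coloured points the 4 genes. Dppa2 and Dppa4 lie at the lower edge of the grey points on the left, and all 4 genes lie above the middle of them on the right.

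By rank, Dppa2 and Dppa4 had the highest correlation among the 6 pairs of the 4 genes. Their Spearman's rho over 419 cells was 0.327, with 0.125 to 0.391 within lanes. This was above the rho of Dppa2 with all but 2 of the 200 genes nearest Dppa4 in mean (median 0.0211) and above the rho of Dppa4 with all 200 genes nearest Dppa2 (median 0.0410). Cells share library preparation, lane and scaling, so each rho is a description; taking out the rank of the number of rows above 0 left it at 0.327.

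The other pairs had lower rank correlations. Spearman's rho was 0.201 for Dppa4 with Dppa5a (-0.0135 to 0.282 within lanes), 0.184 for Dppa2 with Dppa5a (0.0477 to 0.334) and 0.129 for Dppa3 with Dppa5a (0.0355 to 0.238). Dppa3 had a rho of 0.0633 with Dppa2 and of 0.0552 with Dppa4, and both changed sign between lanes. Pearson's r of log2(value + 1), which gives cells near 0 more weight, was 0.617 for Dppa2 with Dppa5a and 0.383 for Dppa2 with Dppa4, so by this measure the order of these pairs was reversed.

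The covariation of Dppa2 and Dppa4 was not stronger along the chromosome they share. On the same chromosome, rho was 0.223 between the 129 alleles and 0.290 between the CAST alleles. Across chromosomes, it was 0.266 for Dppa2 from 129 with Dppa4 from CAST and 0.189 for Dppa2 from CAST with Dppa4 from 129, so the ranges overlapped.

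The long row of Dppa4, with the extra exon bases printed above, took 34.5% of the gene's value (26.9% to 39.8% over lanes). The share was alike between alleles, 34.2% in 129 and 34.8% in CAST. Both rows had a value in 370 cells, and their levels were opposed over cells (rho -0.242). With both rows summed, the mean scaled level of Dppa4 was 76.1 and its rho with Dppa2 was 0.452. The short row of Dppa3 took 20.7% of the value of Dppa3 (16.9% to 25.7% over lanes), with 27.0% in 129 and 19.1% in CAST. It was the only Dppa3 row above 0 in 92 cells, which lowers the share of cells off when both rows are summed. The labels do not say how reads that fit both rows were divided.

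The 12 cells with the Dppa2 row or the short Dppa4 row at 0 were of different kinds. Both rows were at 0 in 3 cells, that of Dppa2 alone in 5 and that of Dppa4 alone in 4. Dppa5a was off as well in 1 of the 3. Of the cells with the short Dppa4 row at 0, 4 had a value in the long row and 3 had none. Which cells these were was not listed, so a short row at 0 does not mean that Dppa4 was absent. The 8 cells without Dppa2 had Dppa5a levels of 0 to 186, embryonic stem cell marker sums of 2.26 to 274 and trophectoderm list sums of 490 to 12998. Their fibroblast list sums (Col1a1, Col1a2, Col3a1, Thy1, Dcn, Lum, Pdgfrb) ran from 0 to 2558, against a median of 4.11 over all cells, with 2558 in cell 63, 2016 in cell 84 and 500.3 in cell 171. In cell 288, the highest of these, the list sum was made up mainly of keratins, with 6765 from Krt8, and Dppa4 was at 24.8. The 4 cells with only the short Dppa4 row at 0 had Dppa5a levels of 358 to 929 and marker sums of 602 to 1392. Their trophectoderm list sums were 12.9 to 86.9 and their fibroblast list sums 1.85 to 10.8. The part of these other-type markers in the off cells was not tested. In the rows used, Dppa2, Dppa4 and Dppa5a were all on in 407 cells.

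At the other end, the 2 cells with the highest Dppa2 levels also held genes of the 2-cell embryo, which mark a transient state known from mouse embryonic stem cell cultures. The summed level of 17 such genes (Zscan4, Usp17l, Tcstv and related genes) was above 0 in 128 cells and above 500 in 4. In cell 249 the list sum was 6755, with Dppa2 at 505, Dppa4 at 4.38, Dppa5a at 101.5 and Dppa3 at 63.3. In cell 32 the list sum was 1654, with Dppa2 at 528, Dppa4 at 1.92, Dppa5a at 989 and Dppa3 at 22.1. In both cells the short row of Dppa4 was far under its lower quartile of 32.8. The level of the long row, which was opposed to the short row over cells (rho -0.242), was not listed for these cells. Both alleles of Dppa2 took part: cell 249 held 466 from 129 and 341 from CAST, and cell 32 held 359 from 129 and 190 from CAST.

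The pattern did not extend to all cells with the list. Cell 379 had a list sum of 1172 with Dppa2 at 141.6 and Dppa4 at 52.4, and cell 206 had 552 with Dppa2 at 46.3 and Dppa4 at 56.5. Cells 46 and 239 had Dppa2 at 322 and 290 with list sums of 67.5 and 0. Cell 249 also had the largest total of all cells, 1477656, and 21872 rows above 0, against a median of 29431. Its copy Gm9788 stood at 230. The part of the total in these values was not tested. Over all cells, the rho of the list sum was 0.129 with Dppa2, 0.0233 with Dppa4, 0.0865 with Dppa3 and 0.0912 with Dppa5a.

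In the rows used, genes of naive pluripotency had higher rho values with Dppa5a and Dppa2 than with Dppa4 or Dppa3. These differences were not tested. For Dppa4, all list values are of its short row, whose level was opposed to that of the long row (rho -0.242). No list rho was computed with both rows summed, which raised the rho of Dppa4 with Dppa2 from 0.327 to 0.452. Of the naive pluripotency list, 17 of 17 genes had a rho above 0 with Dppa5a (median 0.255) and with Dppa2 (0.205), 14 of 17 with Dppa4 (0.0846) and 10 of 17 with Dppa3 (0.0307). The median rho over the genes measured was 0.011 with Dppa5a, -7.26e-05 with Dppa2, 0.0128 with Dppa4 and -0.00775 with Dppa3. The highest were Nanog (0.404) and Tfcp2l1 (0.359) with Dppa5a, both transcription factors of the naive state, and Fbxo15 (0.351) and Nanog (0.301) with Dppa2. The lowest was Dnmt3l (0.00315) with Dppa5a and Gdf3 (0.0943) with Dppa2.

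The core pluripotency list was higher with Dppa2 and Dppa4. Its median rho over 8 genes was 0.285 with Dppa2, 0.199 with Dppa4, 0.122 with Dppa5a and -0.113 with Dppa3. Tdgf1, the Nodal co-receptor Cripto, led with Dppa2 (0.432), and Pou5f1, the core pluripotency factor Oct4, led with Dppa4 (0.278). Pou5f1 was the lowest with Dppa3 (-0.227), whereas Sox2 was the highest with it (0.230). Of the formative list, 5 of 9 genes were abundant enough, and 3 of these 5 had a rho above 0 with each of the 4 genes. The list's median rho was 0.101 with Dppa2, 0.198 with Dppa4, 0.0739 with Dppa5a and 0.0503 with Dppa3. Etv5, an ETS factor, had a rho of 0.353 with Dppa2, 0.275 with Dppa4, 0.147 with Dppa5a and 0.0834 with Dppa3. Pou3f1, a POU-domain factor, was below 0 with all 4: -0.0861 with Dppa2, -0.0727 with Dppa4, -0.216 with Dppa5a and -0.163 with Dppa3.

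In the germ line list, Dppa3 had the highest single values. Tfap2c and Prdm1, transcription factors of primordial germ cell specification, had rho values of 0.303 and 0.278 with Dppa3, and Tdrd12, a piRNA pathway gene, 0.251. Tfap2c had 0.0148 with Dppa2, -0.0570 with Dppa4 and 0.0738 with Dppa5a. Prdm1 had 0.203 with Dppa5a, and Tdrd12 had 0.179 with Dppa2 and 0.140 with Dppa4. The list was mixed, however: 5 of the 8 genes abundant enough were above 0 with Dppa3, its median was 0.0824, and Mael, another piRNA gene, had -0.140. All 8 were above 0 with Dppa2 (median 0.1395) and with Dppa5a (0.0862), and 7 of 8 with Dppa4 (0.0617). As a whole, the list was thus not higher with Dppa3 than with Dppa2 or Dppa5a. The mean of Prdm1, 5.28, was close to the limit of 5.

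Of the 10 other maternal-effect genes, 4 were abundant enough. Dppa3 had no gene above 0 of these 4 (median -0.0588), although it is itself a maternal-effect gene. All 4 were above 0 with Dppa2 (median 0.241), Dppa4 (0.165) and Dppa5a (0.274). Khdc3, of the subcortical maternal complex, had a rho of 0.395 with Dppa2 and 0.256 with Dppa5a, and Ooep, of the same complex, had 0.501 with Dppa5a. In the DNA methylation list, the cofactor Dnmt3l had 0.284 with Dppa2 and 0.288 with Dppa4, but -0.176 with Dppa3. Tet1, an enzyme that oxidises methylcytosine, had 0.273 with Dppa2, 0.215 with Dppa4 and 0.256 with Dppa5a. Tet3, of the same family, ran the other way, with -0.250 with Dppa2, -0.0736 with Dppa4 and -0.120 with Dppa5a. Uhrf1 had a rho of -0.0831 with Dppa3, which compares RNA levels and not the proteins.

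**Figure D5:**
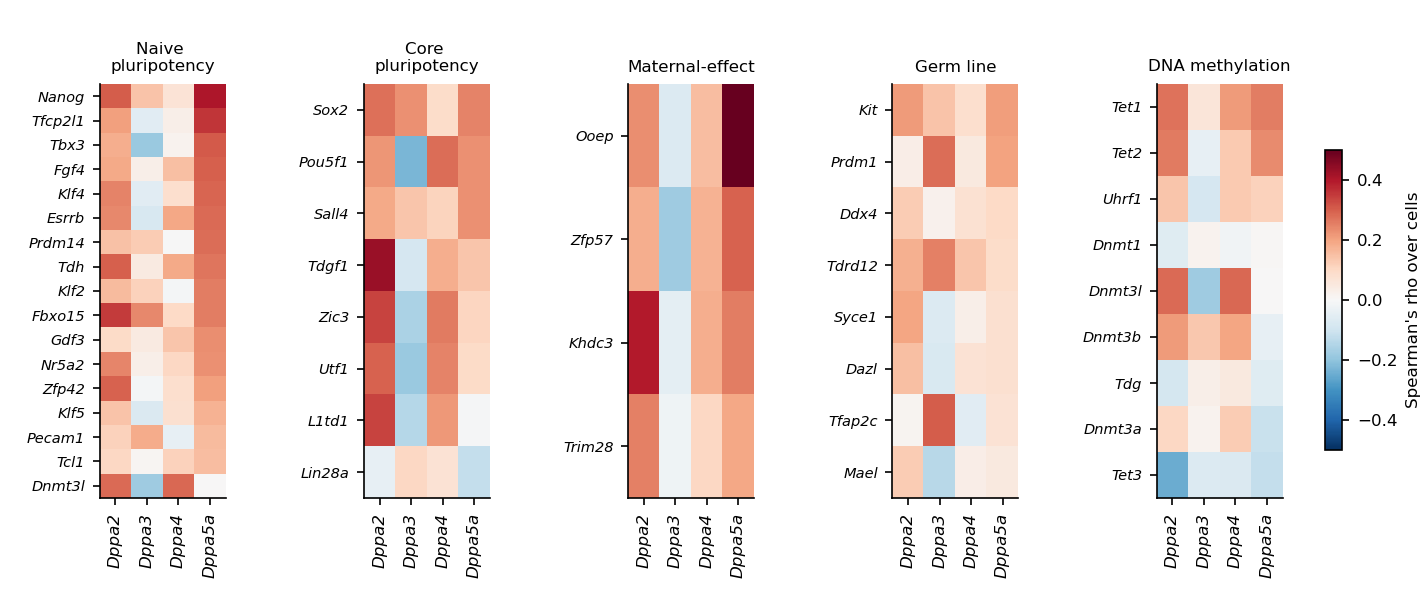
Spearman's rho over the 419 cells between each gene (columns) and genes of 5 lists (rows, mean of at least 5), red above 0 and blue below; rows are ordered by rho with Dppa5a. Ooep (0.501) and Nanog (0.404) lead with Dppa5a, Tdgf1 (0.432) with Dppa2 and Tfap2c (0.303) with Dppa3.

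Over 4419 genes with a mean of at least 20, the closest patterns differed for each gene. For Dppa2 they were Tdgf1 (0.432), the Polycomb partner Jarid2 (0.427), Ctnnal1 (0.420), Rsl24d1 (0.411) and the Notch effector Rbpj (0.397). For Dppa4 the closest of all 4419 genes was Dppa2 (0.327), before Rbpj (0.316), the replication factor C subunit Rfc5 (0.303), E2f4 (0.292) and Epas1 (0.291). The median rho over these genes was 0.0255 with Dppa2 and 0.0341 with Dppa4. At the low end were Litaf (-0.341) and Zswim8 (-0.336) for Dppa2, and the protein disulfide isomerase P4hb (-0.263) and Myo1e (-0.236) for Dppa4.

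For Dppa3, among the closest were Brpf3 (0.514), a scaffold of histone acetyltransferase complexes, Ifitm1 (0.460), a gene of the interferon-induced transmembrane family known from early germ cells, the glutathione reductase Gsr (0.388) and the autophagy kinase Ulk1 (0.357). Brpf3 kept a rho of 0.309 to 0.590 within lanes and Ifitm1 one of 0.383 to 0.525. The lowest were the basement membrane collagen Col4a2 (-0.436) and the intermediate filament gene Vim (-0.416), which was -0.501 to -0.366 within lanes. The median over 4420 genes was -0.00930.

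For Dppa5a the closest were Pigp (0.815), whose shared words with Dppa5a are given above, Ooep (0.501), Nanog (0.404), Calcoco2 (0.398) and the mitochondrial superoxide dismutase Sod2 (0.390). The lowest were Pxdn (-0.334) and the integrin Itga5 (-0.325).

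Neighbours within 250 kb showed their own allele balance. Next to Dppa2 and Dppa4 lies Morc1, a germ line gene, with a 129 share of 34.7%, the opposite side from Dppa2 (69.2%) and Dppa4 (59.2%). Its rho was 0.248 with Dppa2 and 0.209 with Dppa4. Around Dppa3, whose 129 share was 18.7%, the shares were 54.4% for Gdf3, 46.8% for Nanog, 75.4% for the glucose transporter Slc2a3, 46.0% for Rimklb, 43.6% for Foxj2, 42.8% for Necap1 and 99.7% for the pseudogene Gm8430. None of these neighbours had a rho with Dppa3 above that of Nanog, 0.143.

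Next to Dppa5a, Ooep starts 10548 bp away and encodes a related KH-domain protein of the oocyte. Its 129 share was 27.8%, against 52.2% for Dppa5a. The rho of the pair was 0.407 between the 129 alleles and 0.487 between the CAST alleles, against 0.356 for Ooep from 129 with Dppa5a from CAST and 0.360 for Ooep from CAST with Dppa5a from 129. Both values within a chromosome were above both across chromosomes, a difference that was not tested. The other neighbours had rho values with Dppa5a of 0.274 (Eef1a1), 0.256 (Gsta4), 0.224 (Rn7sk) and 0.0225 (Mto1), and 129 shares of 51.4%, 51.2%, 50.2% and 51.1%.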

How the data were processed

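The authors deposited 2 tables of whole-number values, 1 per allele, with 117762 transcript rows and 1 column per cell. Their unit was taken as a score: the deposited totals per cell are nearly alike, so the values are not raw read counts, although the planned design allowed for counts. The submitters' processing notes list Bowtie 1.1.2 and mm10 and do not say for which step; how alleles were assigned is not stated there. Rows were joined to GENCODE vM21 (116919 matched).

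The row with the largest sum stood for its gene. Measured genes had a pooled value of at least 1000, a value above 0 in at least 10% of cells and differing alleles; 542 of 11012 failed the last. Levels were scaled to the mean cell total, while shares used deposited sums. Intrinsic noise is the mean squared difference of the mean-scaled alleles divided by 2, and shared noise their mean product minus 1; genes needed a mean of 5 per allele and a 129 share of 10% to 90%. Copies shared at least 100 words of 31 bases with the member's row. A chromosome counted as read from 1 allele at a share below 20% or above 80%.

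Named are, for each member, the 5 highest and 2 lowest genes by rho among those with a mean of at least 20, without predicted symbols, and neighbours within 250 kb whose mean reached 5. From each list the 2 highest and the lowest are named; Tdrd12, Uhrf1 and some further values of list genes were picked after they were seen, as were the single cells. A gene that this rule picks for Dppa3 is not reported here. Pigp shares 17.3% of its own words with Dppa5a, under the limit of 20% for leaving a gene out. The members and lists were chosen with earlier results of these data known. Doublets were not searched for, and all 419 cells were kept. Calculations used Python 3.11.15, numpy 2.4.6, pandas 2.3.3 and scipy 1.17.1, and were tested on simulated data; matplotlib 3.10.9 drew the figures. Alternatives covered the row, scaling, extreme cells, limits, lanes and correlation measure.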

Additional observations from a re-analysis of the deposited data

How the results depend on the processing

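Of 196 values of 30 results under alternatives other than leaving out lanes, 165 stayed within 1 SD over lanes of the reported value, 27 moved by more and 4 changed sign. Those with copies added, with 1-allele chromosomes or 2-cell-embryo cells left out, and those of other measures for the most similar genes were chosen after seeing the data. Adding the rows of near-identical copies gave Dppa2 a mean level of 83.5, a 129 share of 55.6% and 1.93% of cells with 1 allele. A limit of 5 for a gene to be on gave 3.34% of cells off and 9.38% with 1 allele for Dppa2, 58.9% and 78.5% for Dppa3, and 4.30% and 6.48% for Dppa4. Summing all rows gave Dppa3 a mean level of 13.2, 23.6% of cells off, 53.7% with 1 allele and an intrinsic noise of 2.26. It gave Dppa4 a mean level of 76.1 and a shared noise of 0.0397, and pair rho values of 0.452 for Dppa2 with Dppa4 and 0.138 for Dppa3 with Dppa4. The median share per cell of Dppa3 was 0%. Pearson's r was 0.617 for Dppa2 with Dppa5a and 0.373 for Dppa4 with Dppa5a.

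Within lanes, rho changed sign for Dppa2 with Dppa3 (-0.0493 in lane 2, -0.0287 in lane 6), Dppa3 with Dppa4 (-0.0671 in lane 2) and Dppa4 with Dppa5a (-0.0135 in lane 6). It moved for Dppa2 with Dppa3 (0.257 in lane 4), Dppa2 with Dppa4 (0.125 in lane 4), Dppa2 with Dppa5a (0.334 in lane 2, 0.0477 in lane 6), Dppa3 with Dppa4 (0.150 in lane 3) and Dppa3 with Dppa5a (0.0355 in lane 2, 0.238 in lane 6). The cause was not tested. Leaving out each lane in turn moved none of 150 values past 1 SD over lanes. With 5 lanes of similar size, levels and shares can hardly move that far, so this limit says little about dependence on a lane. The shared noise of Dppa3 counted as unmoved at 4.92 without lane 5, against 10.6 with all lanes, because its SD over lanes was 7.68. The alleles were compared within each cell; no fit with a replicate block was made, because the cells form 1 group. Since the depth in reads is unknown, no counting error can be given for a level or an allele share.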

Other observations

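Dppa1, a further gene with the Dppa name on chromosome 11, was near 0 in these cells, with a summed value of 8 from 129 and 2 from CAST and a value above 0 in 6 cells. The summed lists of other cell types differed in direction. With the trophectoderm list, rho was -0.285 for Dppa2, -0.222 for Dppa5a, -0.176 for Dppa4 and -0.0636 for Dppa3. With the fibroblast list it was -0.276 for Dppa5a and -0.0562 for Dppa2. With the mesendoderm list, which had a median sum of 1.99 per cell, Dppa2 had a rho of 0.169 and Dppa5a one of -0.0483, and with the primitive endoderm list Dppa2 had 0.0200 and Dppa5a -0.0627. The trophectoderm list sum rests on Krt8 and Krt18, which simple epithelia of many kinds express, and its part in the values of the Dppa genes was not tested.

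The number of rows above 0 in a cell, a measure of how much of the transcriptome was read, had a rho of -0.0950 with Dppa2, -0.0923 with Dppa3, -0.0206 with Dppa4 and -0.0258 with Dppa5a. Values of the alleles of 1 gene were the most alike over cells for Dppa5a (rho 0.508 between 129 and CAST), followed by Dppa4 (0.459), Dppa2 (0.368) and Dppa3 (0.357). The alleles of Dppa5a lay within 10% of each other, as a share of their sum, in 39% of the cells with a value. Those of Dppa4 did so in 23.5%, those of Dppa2 in 9.49% and those of Dppa3 in 6.14%.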
